A study of Mus musculus with 9 samples.

Results

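Nascent transcription was compared between mouse embryonic stem cells before and 15 min after a Firre transgene was switched on, across every bidirectional region counted in the series. The comparison used 6 of the 9 PRO-seq libraries, 3 at 0 min and 3 at 15 min. The table holds 174289 regions, of which 54299 passed the filter on low counts and were tested and 119990 did not. The members are thus all regions of the table, and none was chosen by its change.

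The cells carried the genotype Firre KO with a Firre inducible transgene in all groups, the 0 min controls included. They grew on gelatin with LIF, PD0325901 and CHIR99021, and received no doxycycline at 0 min and 1 ng/μL at 15 min and at 30 min. The 30 min libraries share the 0 min libraries as controls, and their values are given only side by side. No group had doxycycline without the transgene, so the drug and the induced RNA cannot be told apart. The labels do not say that replicates came from separate cultures, and p-values then measure only the spread between these samples. The libraries held 1% Drosophila S2 nuclei, which were not used here, so each change is relative to the other mouse regions.

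Firre is an X-linked gene for a long non-coding RNA that stays in the nucleus and is known for binding hnRNPU and for contacts between chromosomes. PRO-seq extends the RNA held by engaged polymerase in isolated nuclei with biotin-labelled nucleotides, so its reads mark polymerase in the act of transcription rather than stored RNA. A bidirectional region is a place from which polymerase leaves in both directions, as it does at promoters and enhancers, and each was counted here in a window of 600 bp on mm10. Because the windows have the same length, their CPM values (counts scaled to the library's reads in regions, with TMM factors) can be set side by side.

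Reads in regions ranged from 3813365 to 5980366 over the 6 libraries, so that 3 counts equalled 0.5 to 0.787 CPM. On the second principal component, which carried 13.9% of the variance, 15 min replicate 3 stood apart at 85.6 and 0 min replicate 2 at -55.1, so the main counts are also given without 15 min replicate 3. Stem cell markers summed to 1456 to 1586 CPM at 0 min and 1621 to 1636 CPM at 15 min over 7 of 8 genes. Pou5f1 had no tested region, and the deposited table is sparse on chromosome 17 as a whole. Feeder fibroblast markers summed to 94.4 to 113 CPM at 0 min and 81.2 to 107 CPM at 15 min over 3 of 10 genes, and Col1a1, Col1a2 and Col3a1 had no tested region. The primitive endoderm markers measured (2 of 7) summed to at most 6.73 CPM, the trophectoderm markers (4 of 8) to 12.5 to 17.8 CPM at 0 min and 6.86 to 12.3 CPM at 15 min, and no marker of the two-cell-like state was measured.

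The transgene was on by 15 min. Summed over the 13 regions of Firre and of Gm35612, the gene model beside it, 0 min replicates 1 to 3 held 20, 31 and 16 reads and 15 min replicates 1 to 3 held 1921, 2019 and 1286 reads. Every 15 min library was thus far above every 0 min library, and the 30 min libraries were higher still, at 4850, 4703 and 3728 reads. Among the regions not tested, chrX:50514793-50515392 of Gm35612 held 13 summed reads at 0 min and 17 at 15 min. The others not tested held none at either time. All 9 tested regions rose, by 4.31 to 7.47 on the log2 scale. These had few reads at 0 min and passed the filter on low counts through the later libraries, so the filter favoured a rise. The strongest, chrX:50569537-50570136 inside Firre, held 0.709, 1.12 and 1.83 CPM at 0 min and 117, 143 and 98.9 CPM at 15 min, and the 3 values at 30 min were 320, 314 and 309 CPM. Its log2 change at 15 min was 6.67 ± 0.21 (SE, edgeR quasi-likelihood test). The region chrX:50562525-50563124 has its centre outside both genes, 0.227 kb from the 3′ end of Gm35612 and within 1 kb of an end of Firre. It went from 3 to 662 summed reads, a ratio of 196. The exact Poisson 95% interval of 66.8 to 953 covers counting error only. The windows alone do not separate the transgene from the endogenous locus, which carries the Firre KO in these cells.

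Over all tested regions, those of Firre and Gm35612 included, 15 min of induction came with 4479 changed regions, 8.25% of those tested. Calls were made at an adjusted p below 0.05 (edgeR quasi-likelihood test, Benjamini-Hochberg over all tested regions). Of these, 2331 (4.29% of tested regions) were higher and 2148 (3.96%) were lower. The change exceeded 2-fold in 1769 of them, and in 4289 the 3 libraries of one time did not overlap those of the other. The calls were made from these same libraries, and the share without overlap over all tested regions was not counted. Without 15 min replicate 3 the count was 6412. It was 2150 without 0 min replicate 1, 2950 without 0 min replicate 3, 2185 without 15 min replicate 1 and 2123 without 15 min replicate 2. Scaling the libraries on gene ends alone, in place of all regions, moved the median log2 change of all regions from 0.02 to 0.19 and the higher share of the calls from 52.0% to 81.0%. Directions below are therefore relative to the median of all regions. With gene-end scaling the totals were 4135 higher and 968 lower.

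The 2 directions lay in different places. Calls within 1 kb of an annotated gene end were mostly lower: 271 of 15010 (1.80%) were higher and 1206 (8.03%) lower. Their median log2 change was -0.16. Calls outside genes were mostly higher: 1290 of 19207 (6.72%) were higher and 269 (1.40%) lower. The median there was 0.21. Regions inside genes divided more evenly, with 770 of 20082 (3.83%) higher, 673 (3.35%) lower and a median of 0.03. Scaled on gene ends, the gene ends had 593 higher and 555 lower calls and the regions outside genes 2197 and 119. That scaling takes gene ends as its reference, so the near balance there follows from the scaling. It cannot show whether gene ends changed. Without 15 min replicate 3 the counts were 326 higher and 2185 lower at gene ends and 1598 higher and 324 lower outside genes.

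Shares also differed by position within a gene. At listed transcription starts, 152 of 11664 regions (1.3%) were higher and 971 (8.32%) lower. With gene-end scaling 393 starts were called higher and 432 lower, and the median moved from -0.19 to -0.03. Most starts are among the gene ends that this scaling takes as its reference. Inside genes, the lower share went down with distance from the start of the host gene, from 71 of 858 regions (8.28%) within 2 kb to 21 of 2687 (0.78%) beyond 100 kb. Higher calls over the same distances were 30 of 858 and 139 of 2687. Outside genes the farthest class, over 50 kb from any gene, had 195 higher and 8 lower calls among 3871 regions. Wide regions were called most often: of 13773 regions that the authors drew at 1000 bp or more, 1316 (9.56%) were higher and 863 (6.27%) lower, against 129 and 147 of 7748 regions under 300 bp. The wide regions also held more reads, with a median of 13.7 CPM against 3.27 CPM under 300 bp. Their median log2 changes were 0.04 and 0.08. Calls rose with mean CPM alone, from 345 higher and 120 lower of 18099 regions in the lowest class to 1268 and 1438 of 18100 in the highest. Whether width mattered at equal CPM was not tested.

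On the X chromosome, which holds the endogenous Firre locus with the KO, 82 of 1998 tested regions (4.10%) were higher and 22 (1.10%) lower. The Firre and Gm35612 regions account for 9 of the 82. Over all tested regions 4.29% were higher and 3.96% lower. Chromosome 13 had 149 higher (5.75%) and 45 lower (1.74%) calls among 2592. Chromosome 11 had 160 higher (4.03%) and 275 lower (6.93%) among 3968. The largest lower share was on chromosome 17, where the table is sparse, with 81 of 1056 (7.67%). The counts on chromosome 11 turned to 275 higher and 133 lower when scaled on gene ends, and those on the X chromosome were 145 and 9. The share of reads on the X chromosome was 2.19%, 2.32% and 2.26% at 0 min and 2.45%, 2.54% and 2.39% at 15 min, without overlap, and the exact two-sided permutation p was 0.1, the smallest that 3 against 3 libraries can give. Firre and Gm35612 gave 0.0336% of all reads at 15 min.

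Higher calls were most frequent a few kb downstream of genes. Of 6891 tested regions that lay 1 to 20 kb past the 3′ end of the nearest coding gene behind them, 636 (9.23%) were higher and 252 (3.66%) lower. At the same distances before a coding gene's start, 341 of 7447 regions (4.58%) were higher and 319 (4.28%) lower. Within 1 kb past a 3′ end, 16 of 606 regions (2.64%) were higher and 57 (9.41%) lower. The higher share was 6.86% between 1 and 2.5 kb, 12.9% (139 of 1080) between 2.5 and 5 kb and 12.3% (131 of 1064) between 5 and 7.5 kb, and it was 4.57% between 15 and 20 kb and 2.79% between 30 and 50 kb. Before starts the higher share stayed between 3.31% and 5.24% over the same classes. Among regions that also lay outside every gene, 391 of 3289 (11.9%) past a 3′ end and 246 of 4186 (5.88%) before a start were higher. This grouping by strand and distance was chosen after results of these data had been seen, and it was not tested as a set.

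**Figure D1:**
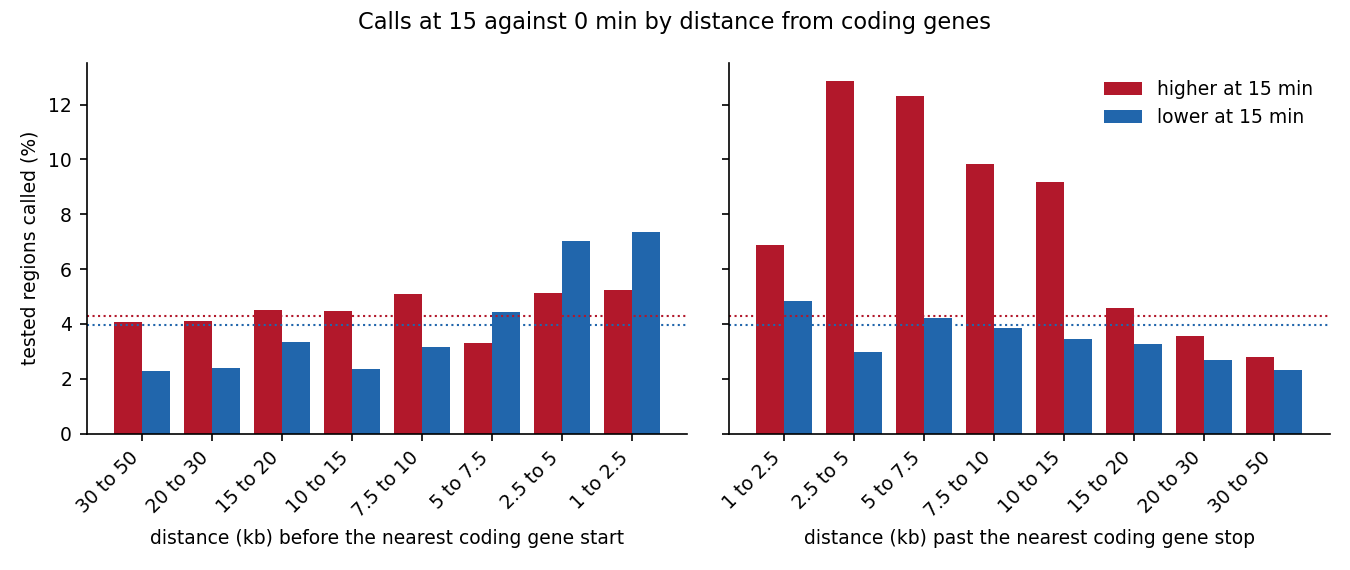
Share of tested regions (vertical axis, percent) called higher (red) or lower (blue) at 15 against 0 min, by distance in kb before the nearest coding gene start (left) and past the nearest coding gene 3′ end (right); dotted lines mark the shares over all regions, 4.29% and 3.96%. The red bars past 3′ ends stand above the dotted line from 1 to 20 kb, with 12.9% at 2.5 to 5 kb, while those before starts stay between 3.31% and 5.24%.

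The 636 higher regions lay past 558 different genes, at a median of 7.54 kb. Their median log2 change was 1.06, a fold of 2.09, and in 618 of them every 15 min library exceeded every 0 min library. Of the 6003 regions there that were not called, 1323 had groups that did not overlap, in either direction. The 636 regions were wide, with a median of 1832 bp as drawn by the authors against 684 bp for the regions there that were not called. Wide regions held more reads and had more calls over all regions as well. Where the start of the gene behind was tested, the median log2 change of those starts was -0.10, beside -0.18 for genes behind regions that were not called, -0.33 behind lower regions and -0.16 for all genes with a tested start. At 30 min the median log2 change of the 636 regions against 0 min was 0.52. These regions were called at 15 min, and a smaller median at 30 min follows in part from that choice. The count was 365 without 0 min replicate 1 and 366 without 15 min replicate 2. In those fits 5.04% and 5.08% of tested regions past 3′ ends were higher against 1.89% and 1.92% of all regions.

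The share of calls differed with the level at the start of the gene behind. Where its start held under 10 CPM, 69 of 1009 regions (6.84%) past its 3′ end were higher, and 9.58% were higher at 10 to 20 CPM. The share was 13.4% (202 of 1503) at 20 to 50 CPM and 11.9% (121 of 1018) above 50 CPM. Higher calls past 3′ ends made up 27.3% of all higher calls, and lower calls there 11.7% of all lower calls, while 12.7% of tested regions lay there. The share of all reads in regions 1 to 20 kb past a 3′ end was 11.1%, 11.9% and 11.8% at 0 min and 12.1%, 12.7% and 11.9% at 15 min. These groups did not overlap, by a margin within the spread between replicates (exact two-sided permutation p of 0.1, the smallest possible).

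The clearest single case lay 8.7 kb past Kat6b, a histone acetyltransferase gene, at chr14:21680919-21681518 inside Dupd1. Its CPM was 4.07, 8.51 and 9.96 at 0 min and 61.3, 78.2 and 56.4 at 15 min. Every 15 min library was over every 0 min library, and the 30 min libraries lay between them at 23.0, 19.8 and 24.9 CPM. The log2 change was 3.17 ± 0.22 at 15 min (adjusted p = 3.54e-10) and 1.63 ± 0.23 at 30 min. The region 3.0 kb past Rnf169, a ubiquitin ligase of the DNA damage response, lies at chr7:99916926-99917525 by the 3′ end of Xrra1. It held 36.0, 42.5 and 45.4 CPM at 0 min and 118, 144 and 145 CPM at 15 min, then 50.8, 50.3 and 52.9 CPM at 30 min. That is a log2 change of 1.72 ± 0.13 at 15 min and 0.32 ± 0.13 at 30 min, so most of the rise was gone by 30 min.

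Past Arhgap5, a region outside genes 9.1 kb away (chr12:52580797-52581396) went from 7.26, 13.7 and 12.1 CPM to 64.3, 63.7 and 52.7 CPM. Its log2 change was 2.48 ± 0.19, and 0.74 ± 0.20 at 30 min. The same shape, a peak at 15 min that was lower at 30 min, was seen 6.1 kb past Rcc2, a regulator of the mitotic spindle. That region lies inside Padi6 and held 18.7 ± 3.44 CPM at 0 min, 74.3 ± 5.83 at 15 min and 30.8 ± 4.51 at 30 min (SD, n = 3 libraries). This shape was also seen 5.3 kb past Npepps, an aminopeptidase gene, with 25.4 ± 1.91, 74.6 ± 9.05 and 33.3 ± 0.284 CPM. Past Mki67, the proliferation marker, a region 7.0 kb away inside Ptpre held 18.5 ± 2.67 CPM at 0 min and 46.3 ± 3.67 at 15 min and was back at 18.2 ± 0.81 CPM at 30 min.

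Other genes with such a region behind them were Pik3ca, the catalytic subunit of PI3 kinase (5.2 kb, log2 change 2.00 ± 0.19), Cul3, a scaffold of ubiquitin ligases (10.9 kb, 2.28 ± 0.21), and Orc5, a subunit of the origin recognition complex (10.3 kb, 2.60 ± 0.24). Their changes at 30 min against 0 min were 0.65, 1.31 and 1.11. The Pik3ca region lies inside Kcnmb3, and the Cul3 region is nearer to Gm34098 (5.04 kb). The largest of the regions named by size lay 18.8 kb past Rtn4, a gene of the endoplasmic reticulum, inside Eml6. It held 1.06, 3.58 and 1.05 CPM at 0 min and 21.8, 24.8 and 15.3 CPM at 15 min, a log2 change of 3.45 ± 0.34 that was 1.70 ± 0.39 at 30 min. Gng2, a G protein subunit gene, had 6 of 16 assigned regions higher, 4 of them side by side between 10.7 and 13.5 kb past its 3′ end with log2 changes of 1.09 to 1.37.

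Not every such region came back down. The region 10.8 kb past Fads2, a fatty acid desaturase gene, lies inside its neighbour Fads3 and held 4.89 ± 1.69 CPM at 0 min, 32.8 ± 5.41 at 15 min and 26.6 ± 3.13 at 30 min. Its log2 changes were 2.79 ± 0.23 and 2.48 ± 0.23. The region 15.0 kb past Cops8, a COP9 signalosome subunit gene, held 27.6 ± 2.38, 69.0 ± 4.49 and 69.3 ± 3.84 CPM, the same log2 change of 1.33 ± 0.13 at both times.

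**Figure D2:**
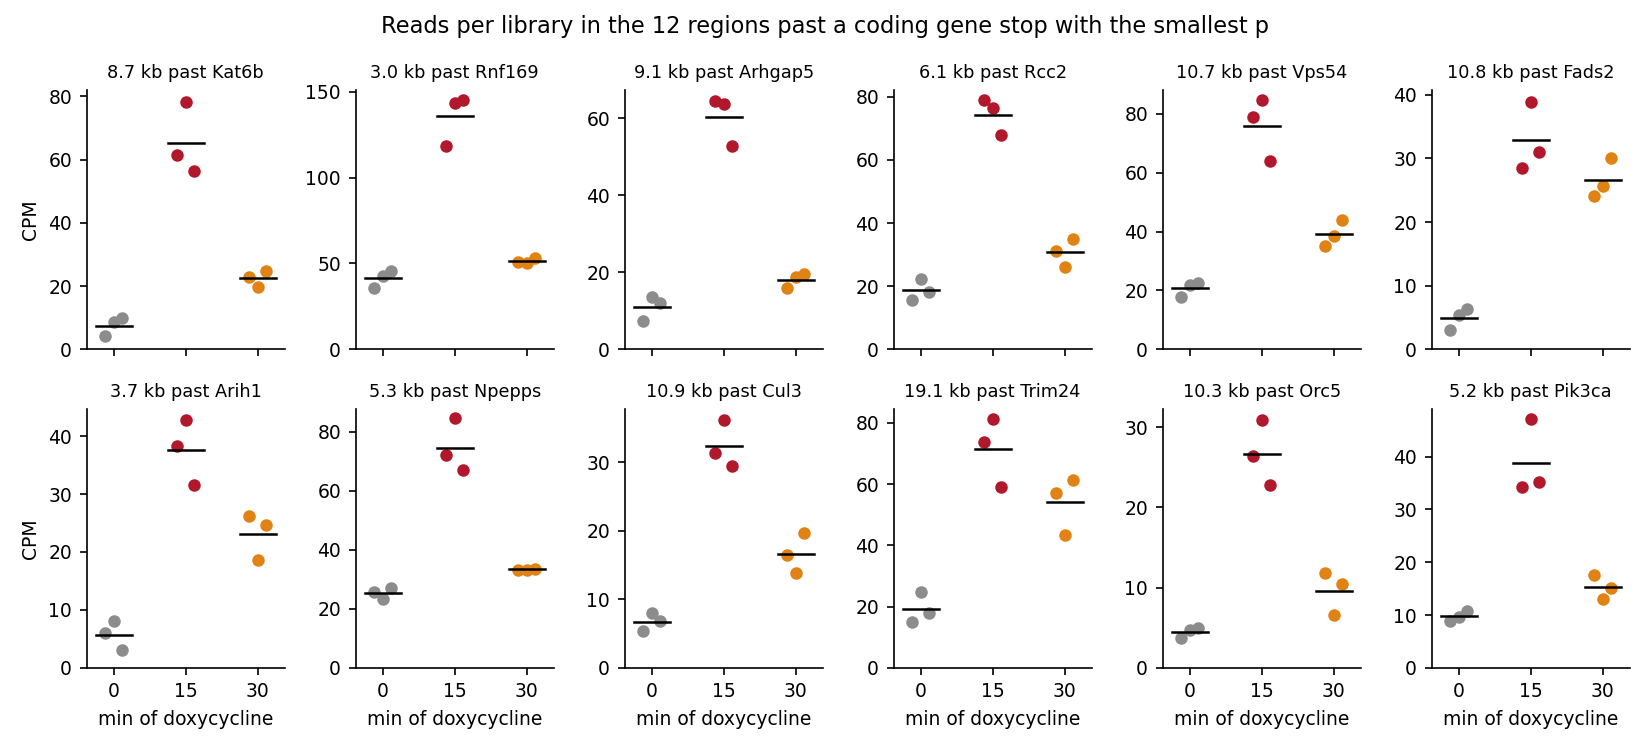
CPM of each library (points; bar, mean of 3 libraries) at 0, 15 and 30 min of doxycycline in the 12 regions past a coding gene 3′ end with the smallest p at 15 against 0 min, each panel on its own scale from 0. In each panel all 3 libraries at 15 min lie above all 3 at 0 min, and the 30 min mean is lower than the 15 min mean, nearest to it past Fads2 (26.6 against 32.8 CPM). The choice by p at 15 min favours this shape.

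A pair of further regions stood out by their small p and were not counted in this grouping. The grouping needs a gene's strand, so a region by a gene without a listed strand cannot be counted as past that gene. A wide region 4.2 kb from Rps20, a ribosomal protein gene whose strand is not in the annotation used here, held 106, 142 and 136 CPM at 0 min and 422, 519 and 427 CPM at 15 min. Its 30 min values were 249, 243 and 303 CPM, and the log2 changes were 1.84 ± 0.12 and 1.05 ± 0.12. A region 4.7 kb from the start of Pycard, an inflammasome adaptor gene, rose from 37.9 ± 8.95 to 163 ± 17.7 CPM and was at 81.7 ± 6.1 CPM at 30 min, with log2 changes of 2.11 ± 0.15 and 1.12 ± 0.15. Both sets of 15 min libraries lay wholly above the 0 min libraries.

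Over the 32 higher regions named by size or by p, log2 changes ran from 1.44 to 3.45. Of these, 17 lay 1 to 20 kb past a 3′ end, 30 were at least 1000 bp wide, and 30 had a smaller log2 change at 30 than at 15 min. The exceptions at 30 min were regions inside Apod, which encodes a lipocalin (2.09 ± 0.25 at 15 min, 2.53 ± 0.25 at 30 min), and inside Armc2 (2.05 ± 0.26 and 2.28 ± 0.25). None of these 32 calls was lost when any of the 6 libraries was left out. The regions were picked by their change or p at 15 min, which favours both calls that hold and smaller changes at 30 min.

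The lower regions named by the same rule changed by less. Over these 32 regions, log2 changes ran from -1.97 to -1.07, 11 were at least 1000 bp wide and 9 lay 1 to 20 kb past a 3′ end. All 32 were nearer to 0 at 30 min, with a median of -0.67, and none was lost when any of the 6 libraries was left out. They included regions in or by signalling genes such as Stim1, the calcium sensor of the endoplasmic reticulum (-1.94 ± 0.35), Ifnar1, an interferon receptor chain (-1.50 ± 0.23), and Nfkb2, a subunit of NF-κB (-1.57 ± 0.34). Their log2 changes at 30 min were -0.54, -0.29 and -1.21.

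Gadd45b, a stress-inducible gene linked to DNA demethylation and p38 signalling, had the smallest p of all lower regions. The window by its 3′ end, chr10:80931434-80932033, held 246, 212 and 213 CPM at 0 min and 89.5, 92.7 and 112 CPM at 15 min. The groups lay far apart, and at 30 min the values of 126, 156 and 128 CPM were between them. The log2 change was -1.19 ± 0.12 (adjusted p = 3.17e-07) and -0.71 ± 0.12 at 30 min. All 4 regions of the gene fell, by 0.75 to 1.34 on the log2 scale, and its start went from 132, 108 and 127 CPM to 61.2, 69.6 and 88.4 CPM.

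Chid1, a chitinase-domain gene, gave the plainest return. A region inside it held 48.4, 47.9 and 53.8 CPM at 0 min, 16.3, 17.9 and 26.0 CPM at 15 min and 59.0, 45.1 and 46.2 CPM at 30 min. The 15 min libraries lay below all others, with a log2 change of -1.33 ± 0.17 at 15 min and 0.01 ± 0.16 at 30 min. A window centred inside Stat6 lies 0.223 kb past the 3′ end of Nab2, a corepressor of EGR factors. It fell from 71.8 ± 3.08 to 34.4 ± 4.18 CPM and was at 44.4 ± 3.12 CPM at 30 min. Other genes had several lower regions each, among them Septin9, a cytoskeletal GTPase (5 of 12 regions), Atp5d, a subunit of ATP synthase (3 of 3), Rassf1, a tumour suppressor (3 of 3), and Aplp1, a relative of the amyloid precursor protein (3 of 3).

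Genes with several higher regions, besides Firre (6 of 6) and Gng2, were Dpp6, a potassium channel partner (6 of 23), Immp2l, a mitochondrial peptidase (6 of 22), Sulf1, a heparan sulfatase (5 of 16), Cdh3, P-cadherin (4 of 6), and Msc, a bHLH factor (4 of 6). None of these genes had a lower call. The Cdh3 regions had a median log2 change of 1.06 at 15 min and 1.08 at 30 min, whereas the medians of Dpp6 were 0.49 and 0.31.

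Gene starts are shown first by sequence, because the starts called higher and those called lower differed in base composition. The 300 bases from 250 before to 50 after the start are given for 3 histone genes whose windows within 1 kb of the start rose (H1f4, H1f1, H3c11) and for Gadd45b, Cbx8 and Bcl3, whose windows there fell. The windows of H1f1, H3c11, Gadd45b and Cbx8 overlap the printed bases. That of H1f4 (chr13:23621487-23622086) lies by the gene's 3′ end, and that of Bcl3 (chr7:19823356-19823955) lies further upstream, and neither overlaps them. They are from RefSeq on GRCm38.p6, 5′ to 3′ on the gene's strand. Capitals mark every match, on either strand, to TATAAA (the core of the TATA box), to CCAAT (the CCAAT box), to GGGCGG (the GC box of SP factors), to CACGTG (the E-box), to TGACGTCA (the cyclic AMP response element) or to TGANTCA (the AP-1 site).
H1f4 (chr13:23622509-23622808, minus strand): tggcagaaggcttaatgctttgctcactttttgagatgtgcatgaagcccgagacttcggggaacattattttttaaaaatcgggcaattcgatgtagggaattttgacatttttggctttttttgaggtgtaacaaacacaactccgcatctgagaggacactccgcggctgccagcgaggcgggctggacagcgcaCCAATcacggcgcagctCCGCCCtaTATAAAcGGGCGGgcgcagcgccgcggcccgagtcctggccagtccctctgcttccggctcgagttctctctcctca
H1f1 (chr13:23763418-23763717, plus strand): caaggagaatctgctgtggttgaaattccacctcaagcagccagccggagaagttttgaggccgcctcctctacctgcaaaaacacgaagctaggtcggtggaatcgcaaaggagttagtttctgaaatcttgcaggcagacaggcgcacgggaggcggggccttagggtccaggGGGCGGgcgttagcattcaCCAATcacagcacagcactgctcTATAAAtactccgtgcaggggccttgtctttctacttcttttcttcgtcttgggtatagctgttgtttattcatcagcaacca
H3c11 (chr13:21783348-21783647, minus strand): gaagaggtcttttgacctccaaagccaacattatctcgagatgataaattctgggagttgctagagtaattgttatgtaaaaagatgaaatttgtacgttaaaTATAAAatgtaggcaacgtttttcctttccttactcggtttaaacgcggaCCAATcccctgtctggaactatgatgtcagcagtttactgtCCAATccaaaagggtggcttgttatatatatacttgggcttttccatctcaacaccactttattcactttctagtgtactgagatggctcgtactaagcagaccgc
Gadd45b (chr10:80929841-80930140, plus strand): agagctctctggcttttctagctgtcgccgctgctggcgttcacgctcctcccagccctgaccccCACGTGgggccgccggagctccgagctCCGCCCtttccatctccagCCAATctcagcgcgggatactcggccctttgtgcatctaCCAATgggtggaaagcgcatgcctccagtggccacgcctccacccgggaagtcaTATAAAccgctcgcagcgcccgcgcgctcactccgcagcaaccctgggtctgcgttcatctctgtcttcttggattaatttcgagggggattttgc
Cbx8 (chr11:119040864-119041163, minus strand): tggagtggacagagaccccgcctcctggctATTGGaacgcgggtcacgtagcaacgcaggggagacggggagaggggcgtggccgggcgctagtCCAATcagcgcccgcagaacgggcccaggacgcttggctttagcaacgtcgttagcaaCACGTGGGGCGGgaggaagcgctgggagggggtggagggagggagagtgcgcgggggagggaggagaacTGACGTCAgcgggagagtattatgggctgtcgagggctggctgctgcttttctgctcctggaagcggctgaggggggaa
Bcl3 (chr7:19822706-19823005, minus strand): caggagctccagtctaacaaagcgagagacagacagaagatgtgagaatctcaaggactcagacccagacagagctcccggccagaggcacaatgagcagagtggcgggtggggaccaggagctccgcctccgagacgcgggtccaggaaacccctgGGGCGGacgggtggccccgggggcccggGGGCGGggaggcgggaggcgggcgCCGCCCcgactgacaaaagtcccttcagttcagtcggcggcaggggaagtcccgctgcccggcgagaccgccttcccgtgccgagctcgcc

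The 3 histone promoters each carry TATAAA and CCAAT and have a GC content of 54.3%, 52.0% and 39.3%. Those of Cbx8 and Bcl3 have 66.0% and 69.0% GC and no TATAAA. The Gadd45b promoter, at 62.0% GC, holds TATAAA as well, so the motif alone did not mark the direction. Letters that match a motif are a description of the sequence and not a measured binding site.

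Over all 11664 tested regions at a listed start, the change at 15 min went down as the GC content of the promoter went up. The median log2 change was 0.07 at 45% GC or less (33 of 434 higher, 4 lower) and -0.03 between 45% and 50% (36 and 40 of 914). It was -0.15 between 55% and 60% (25 and 164 of 2070) and -0.31 above 70% (3 and 252 of 2312). The promoters of higher starts had a median GC content of 52.0%, those of lower starts 64.7% and all tested starts 61.7%. Without the histone regions the 45% class still had 24 higher and 4 lower starts of 422 and a median of 0.05. At 30 min the medians of the lowest and highest class, histones included, were 0.04 and -0.22. Scaled on gene ends, the 15 min medians of these classes were 0.22 and -0.15, so the order stayed and the zero moved.

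**Figure D3:**
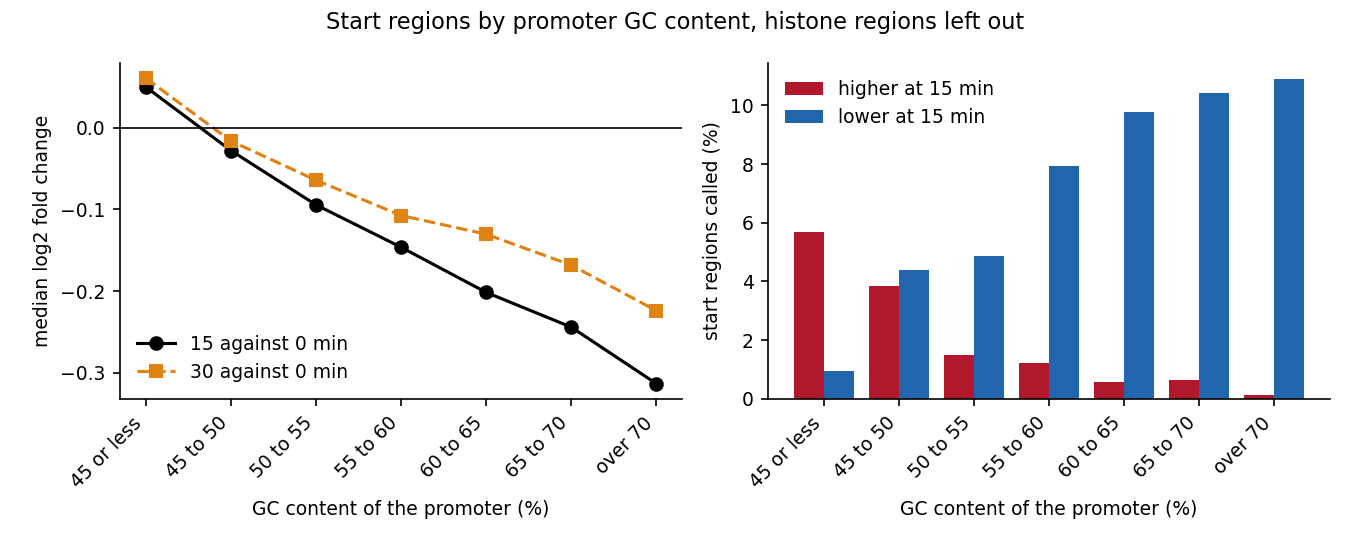
Start regions by GC content of the promoter (horizontal axis, percent), histone regions left out: median log2 change at 15 min (black) and 30 min (orange) against 0 min on the left, share called higher (red) and lower (blue) at 15 min on the right. The black line goes from 0.05 at 45% or less to -0.31 above 70%, while the blue bars grow from 0.95% to 10.9%.

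The reads of single libraries showed less separation. Starts with promoters over 65% GC took 15.0%, 12.8% and 13.97% of the reads at 0 min and 11.96%, 11.1% and 13.8% at 15 min, so that 15 min replicate 3 lay among the 0 min libraries. Starts with promoters of 50% GC or less took 5.07%, 5.36% and 4.90% at 0 min and 5.83%, 5.62% and 5.47% at 15 min, without overlap (exact two-sided permutation p of 0.1, the smallest possible). The part of base composition in library preparation was not tested.

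Motifs differed between the directions as well. TATAAA was in the promoters of 21.1% of higher starts, 3.30% of lower starts and 6.61% of all tested starts, and in 13.6% of the 32851 listed promoters of this length. Without the histone regions 18.8% of the 138 higher starts held it. GGGCGG was in 33.6% of higher, 77.3% of lower and 65.5% of all tested starts, and in 35.7% of listed promoters. TGANTCA was in 10.5%, 2.88% and 4.32%, and in 7.81% of listed promoters. CCAAT was in 41.4%, 40.5% and 38.5% (37.4% of listed promoters), CACGTG in 7.89%, 8.24% and 10.2% (7.15%) and TGACGTCA in 3.95%, 2.78% and 3.04% (1.79%), which differ little between the directions. Motifs were searched on both strands.

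At promoters under 50% GC, with histones left out, TATAAA no longer set the median apart: the 256 starts with it had a median log2 change of -0.02 and the 986 without it 0.00. The calls were 14 higher and 5 lower with the motif, and 43 higher and 33 lower without it.

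Genes were then described by lists, each gene by its region within 1 kb of a listed start or, failing that, at another gene end. Of 10630 genes with a tested region at a listed start, 168 (1.58%) were higher and 946 (8.90%) lower. The median log2 change was -0.16, and 0.00 when libraries were scaled on gene ends, which takes such regions as its reference. Each list below is read beside these values. The lists were compiled with results of these data known.

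Replication-dependent histone genes, which are transcribed in S phase from clusters without polyadenylated products, moved furthest up as a group. Of 53 genes 32 were measured, in 20 regions because neighbouring genes can share a window. Of these genes 22 were higher and none lower. The median log2 change was 0.35. By region, 14 of 20 were called and all 20 had a log2 change above 0, from 0.20 to 0.79. The DESeq2 Wald test called 6 of the 20. The count was 7 without 0 min replicate 1, 5 without 0 min replicate 3, 6 without 15 min replicate 1, 8 without 15 min replicate 2 and 16 without 15 min replicate 3.

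The window shared by H1f4, a linker histone, and H2bc6, a core histone, held 247, 292 and 299 CPM at 0 min and 466, 470 and 514 CPM at 15 min. These groups were clearly apart, and the 30 min mean was back at 240 ± 19.4 CPM. Its log2 change was 0.79 ± 0.10 at 15 min (adjusted p = 1.12e-05) and -0.22 ± 0.10 at 30 min. H1f1, another linker histone, went from 236, 275 and 236 CPM to 475, 405 and 396 CPM and stood at 256 ± 31.9 CPM at 30 min, with log2 changes of 0.77 ± 0.11 and 0.04 ± 0.11.

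H3c11, one of the genes of histone H3, is among the strongest windows of the table, at 1394, 1573 and 1309 CPM at 0 min and 2046, 2022 and 1932 CPM at 15 min. The log2 change was 0.49 ± 0.08, and -0.16 ± 0.08 at 30 min. The calls of the H1f4, H1f1, H3c11, H2ac18 and H2ac13 windows held with each library left out. The weakest change was at H4c8, with 621, 659 and 638 CPM at 0 min and 756, 660 and 786 CPM at 15 min (log2 change 0.20 ± 0.09), which did not pass the test.

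Together the 20 histone regions took 1.78%, 1.98% and 1.59% of all reads at 0 min and 2.37%, 2.22% and 2.15% at 15 min, without overlap (exact two-sided permutation p of 0.1, the smallest possible). At 30 min they took 1.39% to 1.64%. Of the 20, H1f1 alone had a log2 change above 0 at 30 min. Cell cycle phase was not measured in these libraries, and its part was not tested. Their promoters held TATAAA in 11 and CCAAT in 18 of the 20 regions, with a median GC content of 44.0%.

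**Figure D4:**
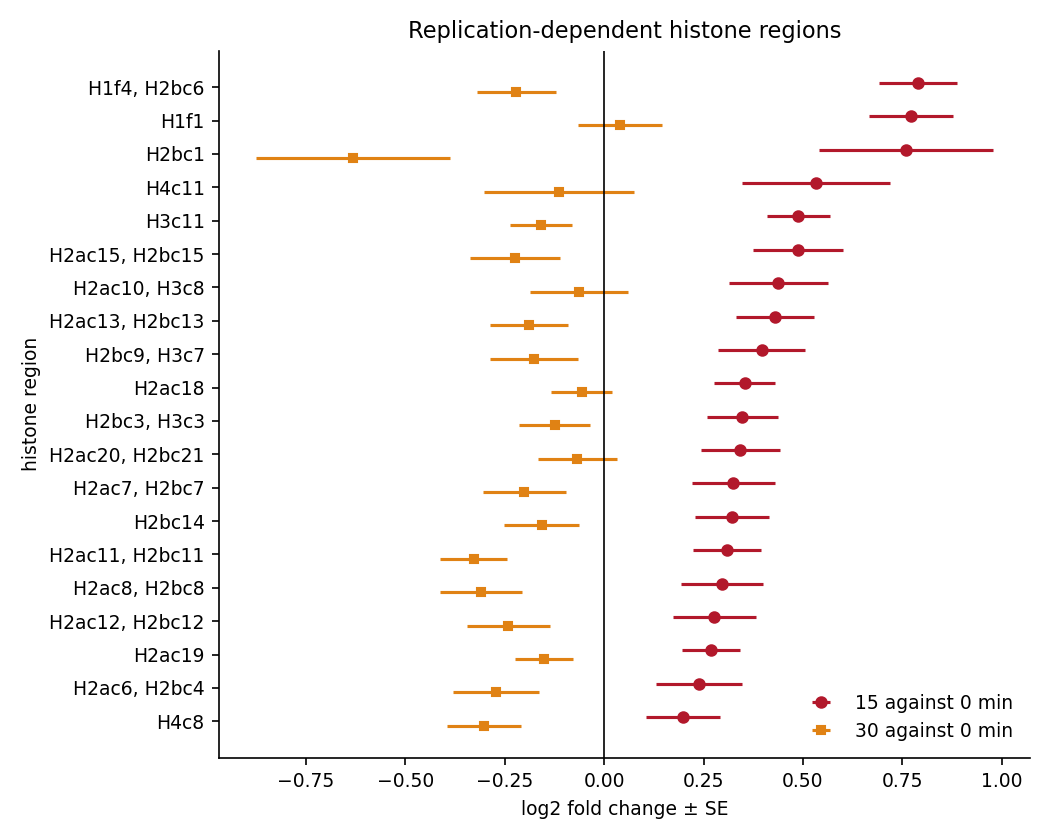
Log2 change ± SE of each of the 20 histone regions at 15 against 0 min (red circles) and 30 against 0 min (orange squares); both use the same 0 min libraries. All red points lie above 0, from 0.20 to 0.79, and of the orange points only that of H1f1 does, at 0.04.

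Genes of the translation machinery leaned the same way with few calls. Cytosolic ribosomal protein genes had 5 of 70 higher and none lower, with a median of 0.14. Rps27 rose from 113, 109 and 110 CPM to 170, 152 and 154 CPM (0.52 ± 0.11), without overlap, and its call held with each library left out. Hosts of small nucleolar RNAs had 3 of 20 higher with a median of 0.20, led by Taf1d (0.55 ± 0.12), whose start region is shared with another gene. Mitochondrial ribosomal protein genes were mixed, 3 higher and 4 lower of 65, with Mrpl14 the most clearly changed (-0.85). None of 23 genes of MYC and ribosome biogenesis passed edgeR's test or the DESeq2 Wald test, 7 had an unadjusted p below 0.05, and the median was 0.14. Scaled on gene ends, 21 cytosolic ribosomal protein genes, 11 hosts and 4 genes of MYC and ribosome biogenesis were higher and none lower, and the mitochondrial list had 8 higher and 1 lower.

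Pluripotency genes had few calls, and most of these were higher calls in the naive list. Of 10 core genes 1 was lower, Lin28a, an RNA-binding regulator of let-7 (25.5 ± 1.56 to 14.6 ± 2.04 CPM, -0.81 ± 0.18), a call lost without 15 min replicate 1. Of 16 naive genes 4 were higher and none lower, with a median of 0.07. All genes with a tested start had 1.58% higher and a median of -0.16. Spp1, osteopontin, rose from 64.5, 91.3 and 84.2 CPM to 120, 132 and 119 CPM (0.63 ± 0.13), and Nr0b1, the X-linked repressor DAX1, from 68.9, 70.5 and 78.1 CPM to 100, 96.1 and 112 CPM (0.50 ± 0.12). The 15 min libraries of both lay above all 0 min libraries. The other 2, Fbxo15 (0.55) and Prdm14 (0.38), lost their calls when some libraries were left out, and none of 11 formative and primed genes passed edgeR's or DESeq2's test (1 at an unadjusted p below 0.05).

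Among targets of signalling pathways, the LIF-STAT3 list had 2 of 9 lower, none higher and a median of -0.32. Bcl3, a nuclear cofactor of NF-κB, fell from 239, 194 and 223 CPM to 120, 138 and 157 CPM, without overlap, and was at 171 ± 6.99 CPM at 30 min (-0.66 ± 0.11 and -0.35 ± 0.11). Socs3, the feedback inhibitor of LIF signalling, had a log2 change of -0.59 ± 0.14, a call lost without 0 min replicate 1 and without 15 min replicate 1. The BMP list had 1 of 9 higher, 1 lower and a median of -0.07. Id3, an inhibitor of bHLH factors, rose from 25.3, 28.9 and 35.1 CPM to 62.5, 59.5 and 59.8 CPM and stayed at 64.7 ± 7.38 CPM at 30 min (1.03 ± 0.14 and 1.12 ± 0.14). Smad6, an inhibitory SMAD, fell from 17.7 ± 1.71 to 9.67 ± 3.02 CPM (-0.90 ± 0.22, and -0.84 at 30 min), a call lost without 0 min replicate 1, 15 min replicate 1 or 15 min replicate 2. In the FGF-ERK list Spry1, a feedback inhibitor, was the 1 call of 13, from 50.2 ± 8.41 to 29.2 ± 5.5 CPM (-0.80 ± 0.16).

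The few calls in the lists of stress and growth programmes were all lower. Most calls over all genes with a tested start were lower too (8.90% lower, 1.58% higher), so this direction is not particular to these lists. The immediate early list had 2 of 14 lower with a median of 0.00, and neither call, Zfp36 (-0.74) nor Nr4a1 (-0.90), held with each library left out. In the p53 and Gadd45 list Gadd45b was the 1 call of 16, in the integrated stress response list Gdf15, a secreted stress cytokine (-0.64 ± 0.13), was the 1 of 14, and in the heat shock list Stip1, a co-chaperone (-0.68 ± 0.14), was the 1 of 21. The YAP and SRF list had 1 of 14 lower with a median of -0.28. The glycolysis and hypoxia list had 3 of 23 lower with a median of -0.23, of which Bnip3, a mitophagy receptor (-0.93 ± 0.20), held with each library left out. None of 18 cholesterol synthesis genes passed edgeR's or DESeq2's test (6 at an unadjusted p below 0.05), at a median of -0.26. Scaled on gene ends, the heat shock list had 4 higher and 1 lower, the YAP and SRF list 1 higher and none lower, and the glycolysis and hypoxia list 1 lower.

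Of 28 polycomb genes 3 were lower, with a median of -0.14, near the 8.90% lower and the median of -0.16 of all genes with a tested start. With gene-end scaling 1 was higher and 2 lower. Cbx8, a chromodomain subunit of PRC1, went from 13.5, 5.37 and 10.8 CPM to 3.67, 2.29 and 3.16 CPM (-1.70 ± 0.33), and its neighbour Cbx2 from 75.8, 46.1 and 57.4 CPM to 27.8, 21.5 and 41.0 CPM (-1.01 ± 0.19). The Cbx2 window also holds the start of Gm35829. Both groups were apart, and at 30 min the changes were -0.75 for each. The list of SP and zinc finger regulators, which also holds the bHLH factors Bhlhe40, Hes1, Hes6 and Hey1, had 6 of 14 lower and a median of -0.47, still -0.31 when scaled on gene ends, where 3 were lower. Zbtb7b, a lineage factor known as ThPOK, fell from 42.4 ± 4.81 to 20.8 ± 4.67 CPM (-1.04 ± 0.18) and Zkscan16 from 7.96 ± 1.74 to 2.33 ± 0.16 CPM (-1.77 ± 0.31). These held with each library left out, and Bhlhe40 (-1.43), Klf16, Klf13 and Sp2 did not.

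Genes of polymerase pausing and elongation had 1 of 33 higher (Tcea1, 0.33) and 2 lower (Aff1 and Cdk9, each -0.46), none of which held with each library left out, and 2 higher and none lower when scaled on gene ends. Of 14 nuclear lncRNA genes Dleu2 was lower (-0.69 ± 0.14), and Lncenc1 (0.65) and Platr10 (0.61), both of embryonic stem cells, were higher. None of 16 genes for Firre binding partners and nuclear architecture passed edgeR's or DESeq2's test (median 0.04), nor did any of 7 genes flanking Firre (median 0.14). An unadjusted p below 0.05 was found for 4 and 3 of them. Of 3 measured genes reported in contact with the Firre locus, Ppp1r10 was higher (0.41), in a window shared with Mrps18b, and this call was lost without 0 min replicate 1, 0 min replicate 3 or 15 min replicate 1.

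**Figure D5:**
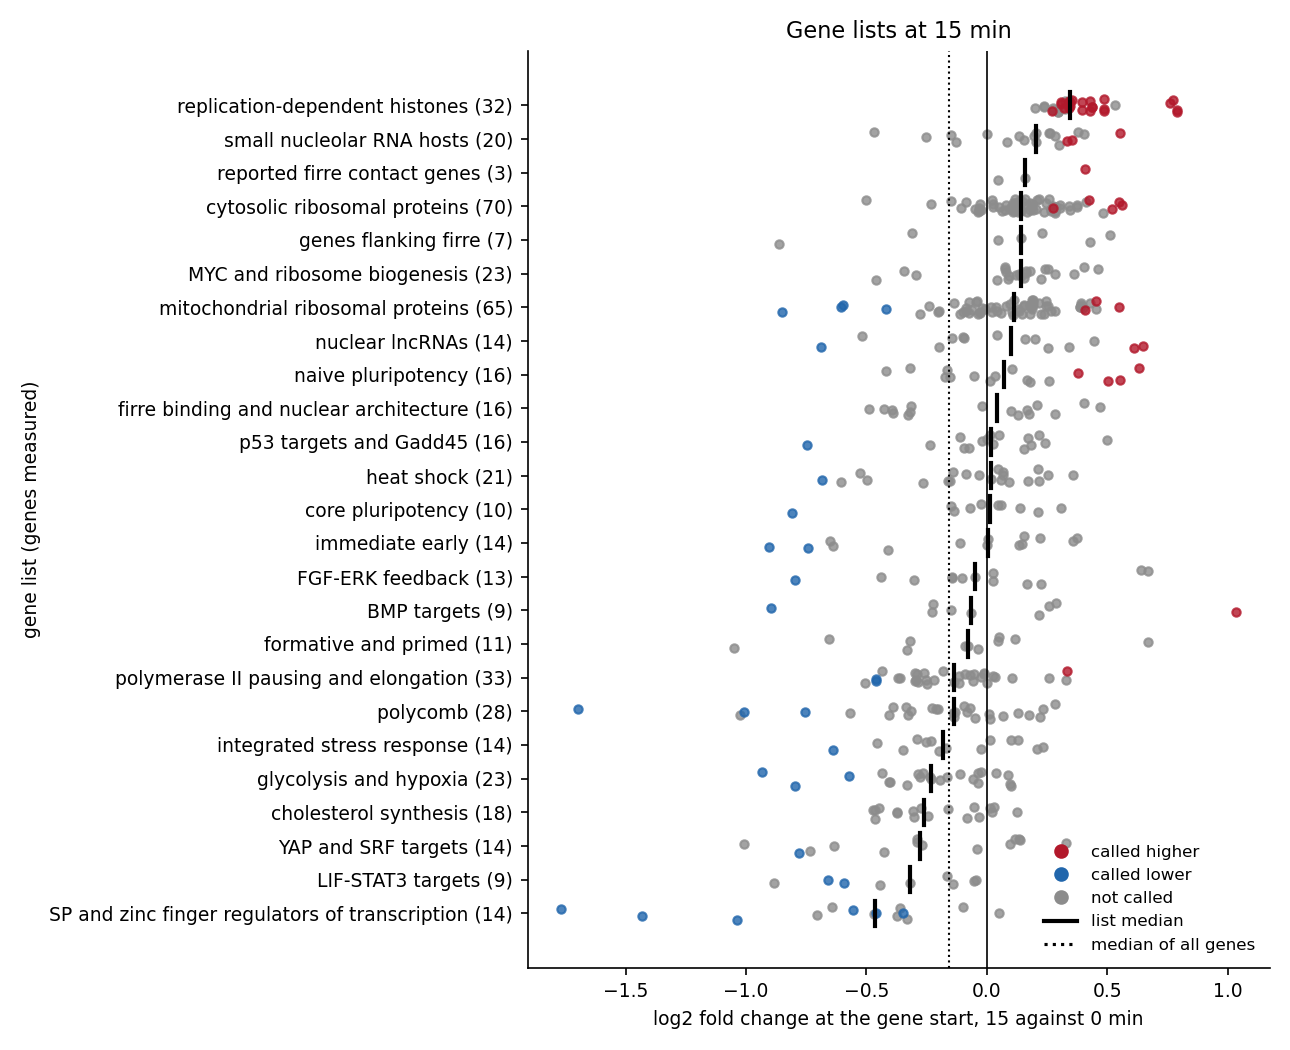
Log2 change at 15 against 0 min (horizontal axis) of each measured gene (points) in each gene list but that of the Firre locus, with genes called higher in red, called lower in blue and not called in grey; thick bars are list medians and the dotted line is the median of all 10630 genes with a tested start, -0.16. Histone genes have the highest median, 0.35, and SP and zinc finger regulators, a list with some bHLH factors, the lowest, -0.47.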

How the data were processed

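PRO-seq reads of 9 libraries entered, 3 at each of 0, 15 and 30 min. Per the submitters' processing notes, HISAT2, featureCounts, DESeq2 1.26.0 and mm10 were used, and settings, filters and the strand counted are not given in the sources used here. Reads of divergent or overlapping genes in 1 window cannot be told apart. The deposited table holds raw counts per 600 bp window, and the authors' deposited region lists hold positions (other values). Of the windows, 50841 (29.2%) overlap another. Totals are reads in regions, not sequenced depth.

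The tools were edgeR 4.0.16, limma 3.58.1 and, for an alternative, DESeq2 1.42.0 in R 4.3.3, and Python 3.11.15. After filterByExpr, edgeR's quasi-likelihood model was fitted to the 9 libraries together by time (common dispersion 0.0228, TMM factors 0.971 to 1.02), Benjamini-Hochberg adjustment over 54299 regions and a call below 0.05. The script was tested on simulated counts. SE is the size of the log2 change over the square root of F. Replicates of a time differed by 2.20 to 3.13 chi-square per degree of freedom, above counting noise.

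Genes came from RefSeq on GRCm38.p6, the assembly of mm10 (35108 genes used). A region is at a gene end within 1 kb of either annotated end. Strand came from the promoter table, for 27025 genes with 32851 listed starts; 17492 coding genes served for distances past 3′ ends. Regions were named by rule: every Firre and Gm35612 region, the 8 higher and 8 lower of largest change in each of the position classes at gene ends, inside and outside genes (mean of at least 20 counts, groups not overlapping, each gene once), the 8 of smallest p per direction, the 8 genes per direction with the most called regions, and the 3 members of smallest p and other called members in each list. Regions past Pik3ca, Mki67 and Cops8, which this rule does not name, were picked with their values in view from the 40 higher regions there of smallest p. Members and lists were chosen with earlier results of these data known.

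The alternatives tried were TMM on gene ends, library size alone, DESeq2 size factors, no filter, 20 counts in 3 libraries, the 6 libraries alone, a replicate block, the DESeq2 Wald test, non-overlapping windows, 500 bp for gene ends, and each library left out.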

Additional observations from a re-analysis of the deposited data

How the results depend on the processing

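Alternatives for regions past 3′ ends and for histone regions were chosen after seeing the data. With TMM factors from gene ends there were 4135 higher and 968 lower calls in all, 593 higher and 555 lower at gene ends, 1345 and 294 inside genes, 2197 and 119 outside genes, and 118 lower calls past 3′ ends. A 500 bp limit, which counts fewer regions as gene ends, left 180 higher calls there. The DESeq2 Wald test called 6 histone regions; the cause was not tested. The counts under the other alternatives stayed within 1.5 times the value reported, and the total was 3302 with the 6 libraries alone and 4174 without a filter. Leaving out 1 library at a time, with fewer samples, gave 2123 to 6412 calls in all, 1075 to 2932 higher and 896 to 3480 lower. The ranges were 119 to 330 higher and 504 to 2191 lower at gene ends, 348 to 962 and 265 to 962 inside genes, and 600 to 1640 and 127 to 327 outside genes. They were 365 to 711 higher and 115 to 325 lower past 3′ ends and 5 to 17 histone regions.

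With the replicate number as a block there were 4804 calls, 50.6% of them higher. The labels do not say that numbers pair samples, and same-numbered libraries at 0 and 15 min had correlations of 0.0438 to 0.175 in their deviations, the lowest for replicate 1, which matched 15 min replicate 3 best. Of 134 named and list regions followed, 40 lost the call without at least 1 library and none reversed. None of the 73 regions of Firre, of largest change or of smallest p lost it under any alternative. Apart from those of Firre and Gm35612, they were picked by change or p in these same libraries, which favours calls that hold.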
